A study of Homo sapiens with 6 samples.

Results

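Molecular chaperones are the proteins that fold other proteins, hold them in solution and hand damaged ones to degradation. Their genes were compared here between the parental SET-2 cell line and its OTX P/R derivative. The set comprises the heat shock factors HSF1 and HSF2, the HSP90 genes, the HSPA genes of the HSP70 family other than HSPA9, HSPH1, the mitochondrial chaperonin genes HSPD1 and HSPE1, the CCT chaperonin subunits, the DNAJA, DNAJB and DNAJC genes, and the small heat shock genes HSPB1 to HSPB9. Members were picked by gene symbol alone, which gave 83 of the 19785 genes of the table. SET-2 is an established human leukemia line of megakaryoblastic character, and the labels give it as secondary AML. The name OTX most likely refers to birabresib, a BET inhibitor, and the series describes P/R cells as persister cells resistant to the drug. BET proteins are bromodomain readers of acetylated chromatin. Both groups were untreated when harvested, in exponential growth in RPMI1640 with fetal bovine serum, and each had 3 libraries described as biologic replicates. A single derivative line is named, so traits of resistance and other differences between these lines cannot be told apart. Nothing says how independent the cultures were, so p-values measure only the spread between these samples.

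In textbook terms HSP70 proteins bind unfolded stretches in a cycle driven by ATP. J-domain proteins, the DNAJ family, bring them clients and start ATP hydrolysis, and exchange factors of the HSP110 type release the nucleotide. HSP90 takes over signalling proteins such as kinases at a late stage of folding, while the ring-shaped chaperonin CCT folds actin and tubulin. Under proteotoxic stress HSF1 binds heat shock elements, inverted repeats of GAA and TTC, in the promoters of many of these genes.

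The deposited value is a StringTie abundance per gene, scaled for gene length and quantile-normalized, so it gives a gene's place among all genes of its library. Sequencing depth is unknown, and the sums of the libraries were nearly equal, from 419375 to 419437. A gene was tested when its mean over the 6 libraries was at least 1, and called at a limma adjusted p under 0.05. Log2 fold changes are OTX P/R minus parental of log2(value + 1), a scale that shrinks the differences of weakly expressed genes, and means are on the linear scale. Among megakaryocyte markers ITGA2B stood at 216 ± 11.5 in parental and 138 ± 3.73 in OTX P/R libraries (SD, n = 3 per group) and GP9 at 34.8 ± 1.22 and 51.0 ± 2.60, while PF4 was listed at 0 throughout. The summed level of 8 T and NK cell markers was 75.6 to 83.9 in parental and 31.0 to 33.5 in OTX P/R libraries, with NKG7 the highest of them and CD3E and CD3G near 0. That of 5 B cell markers was 13.8 to 16.1 and 10.0 to 10.9, with MS4A1 at 0. That of 8 stromal and epithelial markers was 9.02 to 11.8 and 15.8 to 18.2, with DCN and EPCAM near 0, and KRT18, at means of 9.52 and 14.3, made up most of that sum. The part of these cell types in the chaperone values was not tested, and in bulk RNA fewer cells of a type cannot be told apart from less RNA per cell.

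Of the 83 chaperone genes 61 passed the filter on low values, and 18 of them were called, 9 higher and 9 lower in OTX P/R cells. That is 29.5% of the members tested, against 36.1% of all 10741 genes tested (18.6% higher and 17.5% lower), so the share called lay near the background. The median log2 fold change was -0.02 for the members and 0.02 for all genes tested. The higher genes were DNAJB2, DNAJC2, HSPA2, HSPA6, DNAJB6, DNAJC17, DNAJB9, HSPB1 and HSP90AB1. The lower genes were DNAJC7, HSPA4, DNAJB12, DNAJC12, DNAJC14, DNAJB11, HSP90B1, CCT4 and CCT7. In 17 members every OTX P/R library was above every parental one and in 18 every one was below. Such separation was found in 51.6% of all genes tested, 26.8% higher and 24.9% lower. Without OTX P/R replicate 3, 10 members were called, 6 of them higher and 4 lower, and without OTX P/R replicate 2 the lower calls came to 5. Fewer samples are fitted there. Over all genes tested the share called higher fell in both fits too, with values given further below. These counts are therefore no result about the members.

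**Figure D1:**
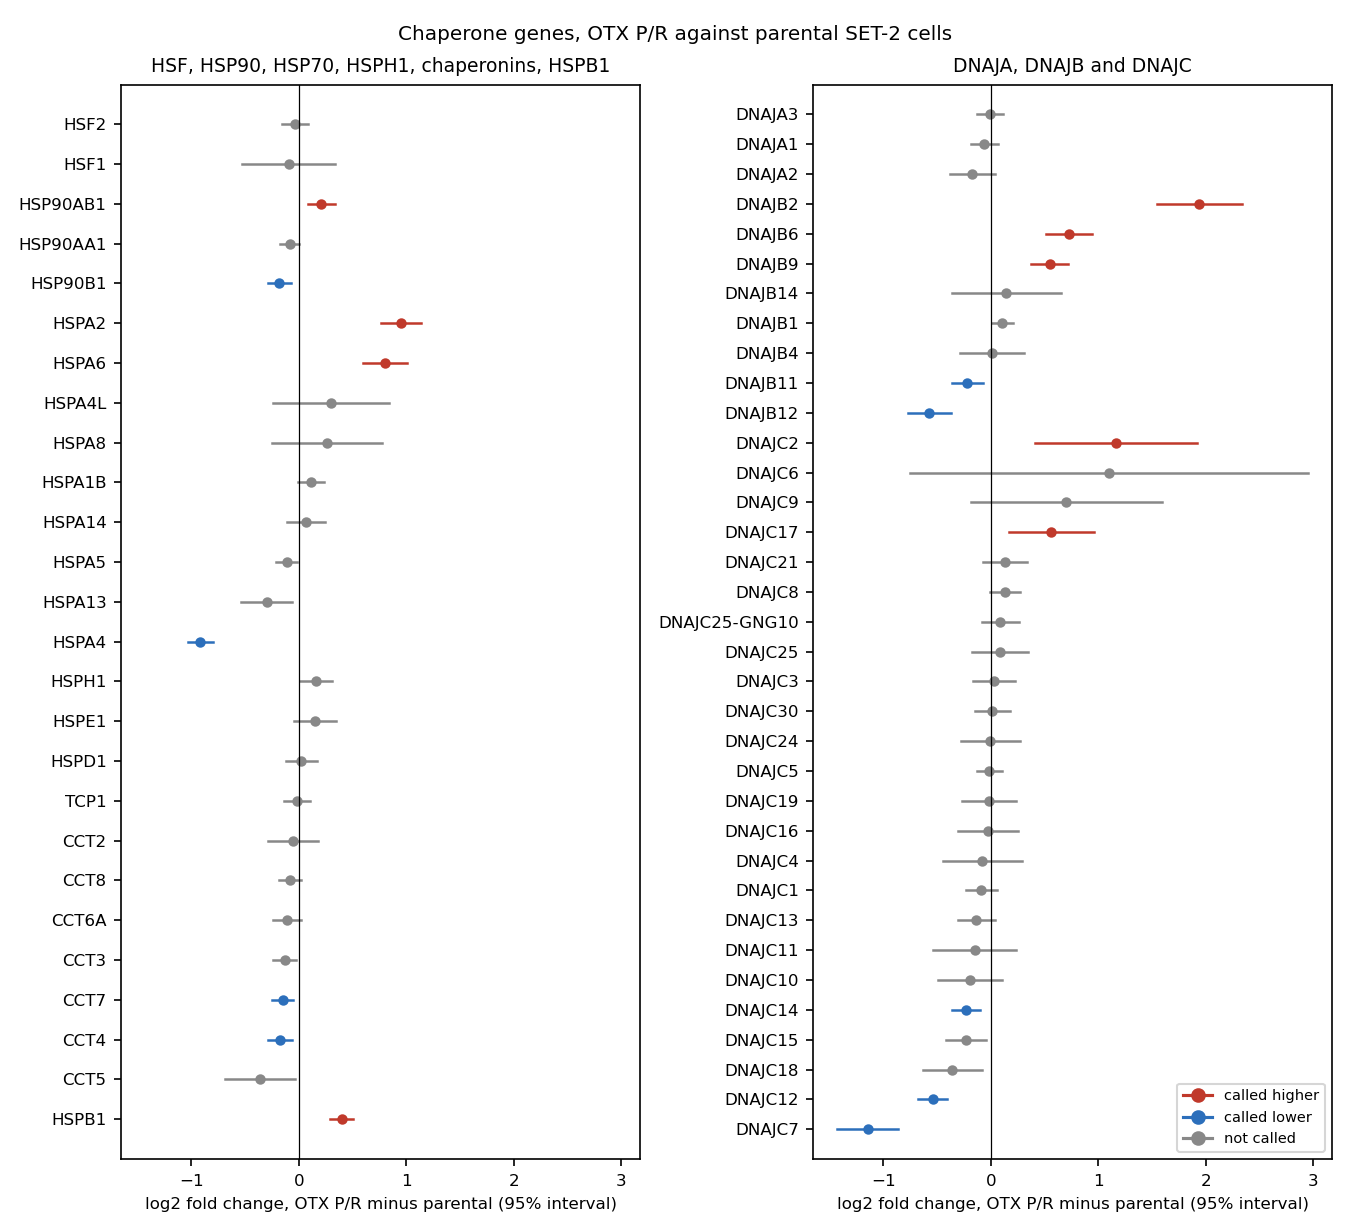
Log2 fold change of each of the 61 tested chaperone genes, OTX P/R minus parental, with its 95% interval from limma; red points were called higher, blue points lower and grey points were not called. Most points lie close to 0, and the widest spread runs from -1.15 for DNAJC7 to 1.94 for DNAJB2.

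The chaperones spanned a wide range of levels, with the constitutive cytosolic forms at the top. HSPA8, the constitutive cytosolic HSP70, was the 25th gene of the table by mean value, followed among the members by HSP90AB1 in place 56 and HSP90AA1 in place 81. Together the 83 genes made up 1.47% to 1.53% of the summed values in parental libraries and 1.49% to 1.62% in OTX P/R libraries, ranges that overlap. The CCT sum was 1623 ± 66.5 in parental and 1483 ± 31.3 in OTX P/R libraries (SD, n = 3 per group), with no overlap of the groups. The HSP90 sum, at 1723 ± 45.2 and 1800 ± 41.0, and the DNAJB sum, at 183.6 ± 5.09 and 200.2 ± 7.02, were separate on the higher side. So were HSPH1, a single gene, and the small heat shock sum. The sums of the remaining classes overlapped, with DNAJC at 418.4 ± 31.2 and 417.9 ± 10.8. Among single genes such separation was found in 51.6% of all those tested. These sums are descriptions of the quantile-normalized values and carry no test.

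**Figure D2:**
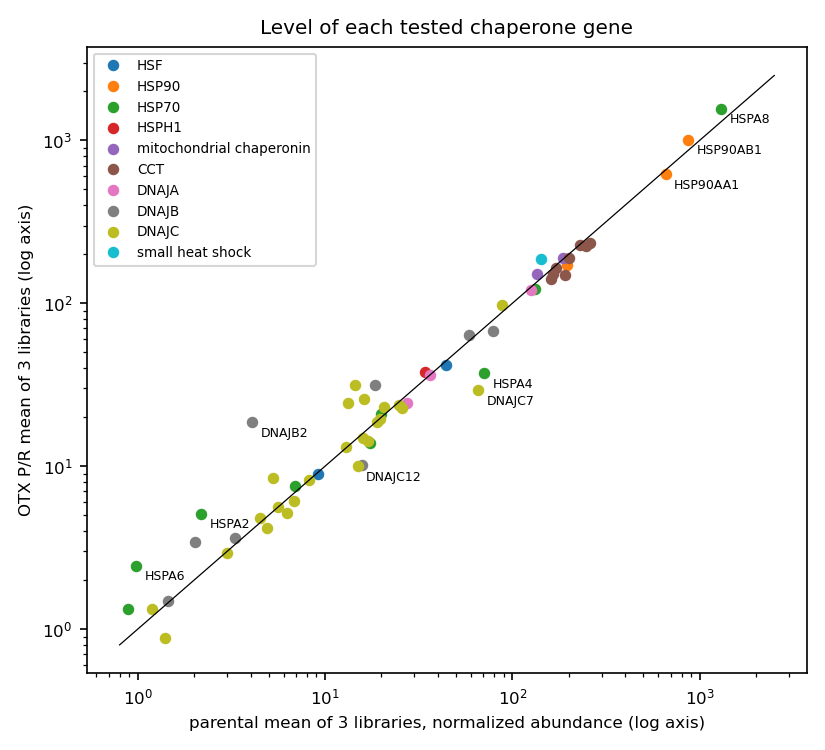
Mean of the 3 OTX P/R libraries against the mean of the 3 parental libraries for the 61 tested chaperone genes, both as normalized abundance on log axes, coloured by class; the line marks equal levels. HSPA8 and the cytosolic HSP90 genes lie at the top near the line, while DNAJB2 lies above it and HSPA4 and DNAJC7 below it.

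The heat shock factors themselves were not called. HSF1, the master regulator of the heat shock response, stood at 37.8, 46.6 and 48.7 in the parental libraries and at 33.1, 51.7 and 41.1 in the OTX P/R libraries. The groups overlapped, and its log2 fold change was -0.09 with a 95% interval of -0.53 to 0.34 (limma adjusted p = 0.715). HSF2, a related factor active in development and in cooperation with HSF1, was steadier, at 8.91 to 9.36 and 8.73 to 9.06. Its interval of -0.16 to 0.09 bounds a change in mRNA more tightly than that of HSF1 (log2 fold change -0.04, adjusted p = 0.603). HSF1 is controlled largely after translation, so its mRNA is not a readout of its activity.

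Heat shock elements are given here because the rule for members did not use them and because they link the factors to their target genes. RefSeq promoter windows on GRCh38.p14, each from 250 bases before to 50 after a gene's start, were found for 74 of the 83 members. They were searched on both strands for the 3-unit element, which is GAANNTTC followed by NNGAA or TTCNNGAA followed by NNTTC, and for the shorter forms GAANNTTC and TTCNNGAA, which lie inside the 3-unit element. The 3-unit element was present in 7.29% of the 96 member windows and in 0.490% of all 35116 windows of that length. The shorter forms were present in 27.1% and 13.5%. By gene, 7 of the 74 members held the 3-unit element, and these were HSPA6, HSP90AB1, DNAJB6, HSP90AA1, HSPA8, HSPD1 and DNAJA1. Of these 3 were called higher, none lower and 4 were not called. Among called members the element was found in 3 of 9 higher and in 0 of 9 lower genes, which is a description with no test. Among members not called it was found in 4 of 38, or 10.5%. The 3 higher genes carry limits, given below. HSPA6 passed the filter only through the OTX P/R libraries, DNAJB6 had chromosome neighbours that moved the same way, and the HSP90AB1 call was lost in some alternatives. A match is not a bound site, and a window with no match says only that these letters are absent from it. The following stretches hold the elements that lie before the start, 5′ to 3′ on the gene's strand, with each match in capitals. In DNAJA1 the match lies just after the start and is not printed.
HSPA6 (chr1:161524436-161524508, plus strand): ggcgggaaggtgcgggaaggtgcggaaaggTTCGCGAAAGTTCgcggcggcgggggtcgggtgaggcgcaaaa
HSP90AB1 (chr6:44247748-44247873, plus strand): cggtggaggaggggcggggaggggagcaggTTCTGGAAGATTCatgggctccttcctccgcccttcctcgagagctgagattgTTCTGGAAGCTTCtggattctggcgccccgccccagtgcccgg
DNAJB6 (chr7:157336843-157336915, plus strand): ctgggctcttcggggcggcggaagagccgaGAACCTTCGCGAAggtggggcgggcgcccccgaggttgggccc
HSP90AA1 (chr14:102087090-102087162, minus strand): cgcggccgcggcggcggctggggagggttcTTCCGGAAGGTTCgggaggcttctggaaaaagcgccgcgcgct
HSPA8 (chr11:123062149-123062386, minus strand): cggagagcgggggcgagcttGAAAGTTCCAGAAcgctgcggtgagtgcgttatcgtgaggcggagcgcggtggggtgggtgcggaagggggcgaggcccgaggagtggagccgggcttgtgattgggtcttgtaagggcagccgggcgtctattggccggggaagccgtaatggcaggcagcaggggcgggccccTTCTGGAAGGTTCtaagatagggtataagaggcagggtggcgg
HSPD1 (chr2:197500038-197500090, minus strand): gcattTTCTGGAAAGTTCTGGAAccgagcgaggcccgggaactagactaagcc

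The element begins 74 bases before the start in HSPA6, 88 in HSP90AA1 and 131 in DNAJB6. HSP90AB1, HSPA8 and HSPD1 each hold 2 matches, which overlap in HSPD1 and begin 165, 230 and 245 bases before the start. HSPA1A, HSPA1B and HSPB1, other genes known to respond to heat, held only a shorter form in these windows.

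Of the cytosolic HSP90 genes HSP90AB1 was called higher and HSP90AA1 was not called. HSP90AB1, the constitutive beta form, stood at 902, 826 and 879 in parental and at 978, 997 and 1042 in OTX P/R libraries. All OTX P/R values were above all parental values, with a log2 fold change of 0.21 ± 0.05 SE (limma adjusted p = 0.0209). HSP90AA1, the stress-inducible alpha form, stood at 658, 650 and 667 against 621, 612 and 631. Every OTX P/R value was lower than every parental one, but the gene was not called (its log2 fold change of -0.08 had an interval of -0.17 to 0.01, adjusted p = 0.127). The ratio of HSP90AA1 to HSP90AB1 was 0.730 to 0.788 in parental and 0.606 to 0.635 in OTX P/R libraries, a quantity chosen after the values were seen. HSP90B1, the form of the endoplasmic reticulum also known as GRP94, was called lower, at 189, 195 and 203 against 173, 171 and 174 (log2 fold change -0.18 ± 0.04 SE, adjusted p = 0.0200). The HSP90AB1 call was lost without OTX P/R replicate 2 (adjusted p = 0.0570) or 3 (0.0673) and with no filter on low values (0.0539), within a range of 0.0198 to 0.0673 over all alternatives. The HSP90B1 call was lost without OTX P/R replicate 1, 2 or 3 (0.0589, 0.0673 and 0.0549), within a range of 0.0180 to 0.0673.

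Within the HSP70 family HSPA2 and HSPA6 rose, and the exchange factor HSPA4 fell to about 0.523 times its parental mean. HSPA2, best known from the testis, stood at 1.99, 2.11 and 2.43 in parental and at 5.12, 4.91 and 5.32 in OTX P/R libraries. The 2 groups were far apart relative to their spread, with a log2 fold change of 0.95 ± 0.08 SE (limma adjusted p = 2.90e-04). HSPA6, which is nearly silent without stress and strongly heat-inducible, stood at 0.855, 1.08 and 1.01 against 2.65, 2.49 and 2.21. It was called higher (log2 fold change 0.80 ± 0.08 SE, adjusted p = 8.25e-04), although its level remained among the lowest of the tested members and it passed the filter only through the OTX P/R libraries. For these low genes the size depends on the added constant, with log2 fold changes of 0.50 for HSPA2 and 0.32 for HSPA6 at a pseudocount of 5, and of 1.24 for HSPA6 at a pseudocount of 0.1.

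HSPA4 belongs to the HSP110 branch, whose members exchange nucleotide on HSP70. It stood at 71.1, 67.8 and 74.0 in parental and at 37.2, 37.0 and 37.0 in OTX P/R libraries (log2 fold change -0.92 ± 0.05 SE, limma adjusted p = 5.80e-05). It was the lower call with the smallest p among the members, and the spread between OTX P/R libraries was 0.105 (SD, n = 3). The other genes of that branch were not called. HSPH1, which encodes HSP105, stood at 32.5, 32.6 and 36.9 against 37.9, 37.4 and 38.7 (log2 fold change 0.16, interval 0.01 to 0.31, adjusted p = 0.0950). It was called without parental replicate 3 (0.0270), within a range of 0.0270 to 0.218. HSPA4L was low, at 0.472 to 1.17 and 0.744 to 1.66, and not called (interval -0.24 to 0.84). It met the filter only through the OTX P/R libraries, with means of 0.886 in parental and 1.33 in OTX P/R libraries. The sum of these 3 genes was 106 ± 5.71 in parental and 76.4 ± 0.404 in OTX P/R libraries.

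The abundant HSP70 genes were not called. HSPA8 stood at 1253, 1607 and 1042 in parental and 1958, 1416 and 1306 in OTX P/R libraries. The groups overlapped widely and the interval of its log2 fold change, -0.25 to 0.77, leaves room for a change of either sign (limma adjusted p = 0.377). HSPA1A and HSPA1B, the neighbouring genes of the main inducible HSP70, encode the same protein and are near-identical in sequence, so their separate values are uncertain. HSPA1B was 6.86 to 7.01 in parental and 7.48 to 7.70 in OTX P/R libraries and not called (adjusted p = 0.123), while HSPA1A was 0.854 to 1.05 and 0.524 to 0.581 and was below the filter. Their sum was 7.71 to 7.96 and 8.00 to 8.25. HSPA14, a ribosome-associated HSP70, was not called either (log2 fold change 0.07, interval -0.11 to 0.25). Processed pseudogenes of HSPA8, of the HSP90 genes and of HSPD1 and HSPE1 can share reads with them.

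**Figure D3:**
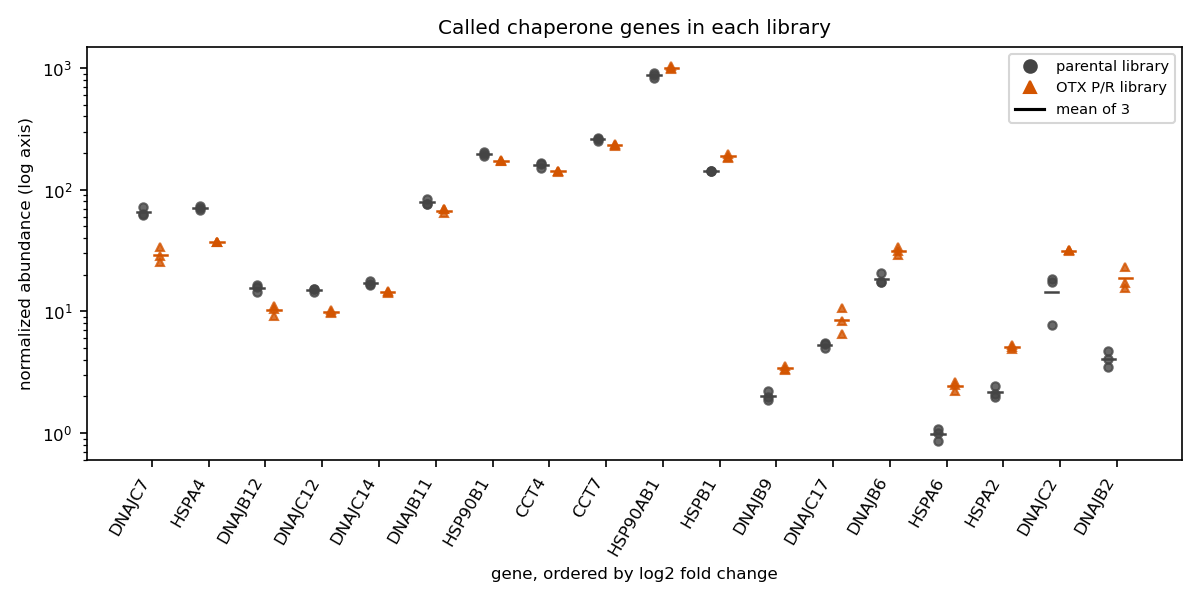
Normalized abundance on a log axis of the 18 called chaperone genes in each library, with parental libraries as grey circles, OTX P/R libraries as orange triangles and a bar at the mean of 3; genes run from the lowest to the highest log2 fold change. The groups are separate in each of the 18 genes, and parental replicate 1 of DNAJC2, at 7.69, lies below the other 2 parental libraries.

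The tested J-domain genes held both extremes of log2 fold change. Of 45 DNAJ genes 35 were tested, of which 5 were called higher, 5 lower and 25 not called. These 28.6% called lay below the 36.1% of all genes tested (18.6% higher and 17.5% lower), so the count is no result about the class. DNAJB2, a J protein that guides clients of HSP70 towards the proteasome and is best known from neurons, had the largest log2 fold change in size of the 61 tested members. It stood at 4.74, 3.47 and 4.04 in parental and at 15.7, 17.2 and 23.0 in OTX P/R libraries, a ratio of means of 4.56 (log2 fold change 1.94 ± 0.16 SE, limma adjusted p = 3.34e-04). DNAJC7, a tetratricopeptide protein that binds both HSP70 and HSP90, had the lowest log2 fold change of those tested, at 61.6, 62.9 and 72.6 against 25.4, 33.7 and 28.8 (log2 fold change -1.15 ± 0.12 SE, adjusted p = 7.71e-04). In both genes the groups lay far apart, and both calls held under every alternative.

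Further J proteins that rose were DNAJB6, DNAJB9, DNAJC2 and DNAJC17. DNAJB6, a suppressor of protein aggregation, stood at 17.5, 20.7 and 17.6 against 29.3, 31.1 and 33.7 (log2 fold change 0.73 ± 0.09 SE, limma adjusted p = 0.00143). DNAJB9, a J protein of the endoplasmic reticulum induced by the unfolded protein response, stood at 2.20, 1.99 and 1.86 against 3.30, 3.54 and 3.37 (0.55 ± 0.07 SE, adjusted p = 0.00187), and its log2 fold change was 0.26 at a pseudocount of 5. Both were separate in every library. DNAJC2, which joins HSPA14 in a complex at the ribosome, stood at 7.69, 18.6 and 17.3 against 32.0, 31.0 and 31.9 (1.16 ± 0.31 SE, adjusted p = 0.0298). Parental replicate 1 was low, and without it the log2 fold change was 0.79 (adjusted p = 8.75e-04). The DNAJC2 call was lost without OTX P/R replicate 1, 2 or 3 (0.0774, 0.0768 and 0.0774) and with no filter on low values (0.0554), within a range of 8.75e-04 to 0.0774. DNAJC17, a nuclear J protein linked to splicing, rose from 5.46, 5.03 and 5.43 to 8.26, 6.46 and 10.7 (0.56 ± 0.16 SE, adjusted p = 0.0388). Its call was lost without parental replicate 1, 2 or 3 (0.0847, 0.104 and 0.0892), without OTX P/R replicate 1 or 3 (0.0919 and 0.0538) and without the filter (0.0668), within a range of 0.0114 to 0.104, and its log2 fold change was 0.37 at a pseudocount of 5.

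J proteins that fell beside DNAJC7 were DNAJB12, DNAJC12, DNAJC14 and DNAJB11. DNAJB12, a membrane J protein of endoplasmic reticulum quality control, stood at 16.6, 15.9 and 14.6 against 9.22, 11.0 and 10.5 (log2 fold change -0.57 ± 0.08 SE, limma adjusted p = 0.00313). DNAJC12, the partner of HSP70 for aromatic amino acid hydroxylases, stood at 14.4, 15.4 and 15.2 against 10.3, 9.97 and 9.63 (-0.54 ± 0.05 SE, adjusted p = 6.99e-04). Their means in OTX P/R cells were thus 0.652 and 0.666 times the parental ones, with no overlap. DNAJC14, a membrane J protein of receptor export, stood at 17.8, 16.3 and 16.8 against 14.4, 14.6 and 14.0 (-0.23 ± 0.05 SE, adjusted p = 0.0181), and its call was lost without OTX P/R replicate 1 (0.0560) or 3 (0.0607), within a range of 0.0145 to 0.0607.

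The remaining 25 tested J-domain genes were not called, with log2 fold changes from -0.36 for DNAJC18 to 1.10 for DNAJC6 and a median of -0.01. DNAJA1 and DNAJB1, the main partners of cytosolic HSP70, stood at 123 to 131 against 116 to 127 and at 58.3 to 59.4 against 62.5 to 64.7. DNAJB1, the classic heat-inducible member, was higher in 3 of 3 OTX P/R libraries than in any parental one but was not called (0.11 on the log2 scale, interval 0.01 to 0.20, limma adjusted p = 0.0772). It was called with no filter on low values (0.0275), within a range of 0.0275 to 0.204. In DNAJC6 and DNAJC9 a single library set the mean. DNAJC6, which encodes auxilin and uncoats clathrin vesicles, stood at 22.7, 2.45 and 23.1 against 24.6, 26.0 and 27.2, and without parental replicate 2 its log2 fold change was 0.17. DNAJC9, a histone chaperone, stood at 14.9, 12.2 and 12.6 against 41.2, 15.3 and 16.8, and without OTX P/R replicate 1 its log2 fold change was 0.27 in place of 0.70. Neither was called in any alternative. DNAJC25 shares sequence with the read-through gene DNAJC25-GNG10, so their values, neither of them called, are not independent.

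Members that work in the endoplasmic reticulum, grouped here by location after their values were seen, moved in both directions. HSPA5, which encodes BiP, the central HSP70 of that compartment, stood at 135, 128 and 134 in parental and 124, 123 and 120 in OTX P/R libraries. The libraries did not overlap, but the gene was not called (-0.11 on the log2 scale, interval -0.21 to -0.01, limma adjusted p = 0.0808). Its co-chaperone DNAJB11 was called lower, at 76.5, 83.3 and 76.1 against 69.3, 63.7 and 69.1 (-0.22 ± 0.06 SE, adjusted p = 0.0305). That call was lost without any 1 library, at 0.0512, 0.0739 and 0.0523 without parental replicates 1, 2 and 3 and at 0.0583, 0.0887 and 0.0588 without OTX P/R replicates 1, 2 and 3, within a range of 0.0302 to 0.0941. HSPA13, a microsomal relative of HSP70, had a log2 fold change of -0.30 (interval -0.53 to -0.06, adjusted p = 0.0584) and passed without parental replicate 2 (0.0285), within a range of 0.0285 to 0.154. DNAJC3, an inhibitor of the kinase PERK, and DNAJC10, a disulfide reductase, had log2 fold changes of 0.03 and -0.20 and were not called. DNAJB9 and HSP90B1, given above, went opposite ways.

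All 8 tested CCT subunit genes had a negative log2 fold change, from -0.36 for CCT5 to -0.02 for TCP1, with a median of -0.12, and 2 of them were called, against 36.1% of all genes tested. Of all 10741 genes tested 5142 had a negative log2 fold change. CCT is a double ring of 8 different subunits, and none of their genes was rare, with means from 141 to 260 in either group. CCT4 stood at 161, 152 and 166 in parental and 139, 143 and 142 in OTX P/R libraries (log2 fold change -0.17 ± 0.05 SE, limma adjusted p = 0.0317). CCT7 stood at 264, 263 and 253 against 230, 235 and 238 (-0.15 ± 0.04 SE, adjusted p = 0.0298). CCT5 was lower by more, at 179, 170 and 225 against 156, 160 and 128, but its libraries varied and it was not called (interval -0.69 to -0.04, adjusted p = 0.0807). The groups were separate on the lower side in 6 of the 8 genes, against 24.9% of all genes tested, and TCP1 and CCT2 overlapped. The ratio of the highest to the lowest subunit was 1.53 to 1.73 in parental and 1.64 to 1.86 in OTX P/R libraries. The CCT4 call was lost without parental replicate 1 (0.0742) or 3 (0.0788) or OTX P/R replicate 1, 2 or 3 (0.0956, 0.0758 and 0.0790) and with a prior without trend (0.0532), within a range of 0.0212 to 0.0956. The CCT7 call was lost without parental replicate 1 (0.0681) or 2 (0.0717) or OTX P/R replicate 1, 2 or 3 (0.0961, 0.0823 and 0.0613) and with a prior without trend (0.0600), within a range of 0.0259 to 0.0961.

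**Figure D4:**
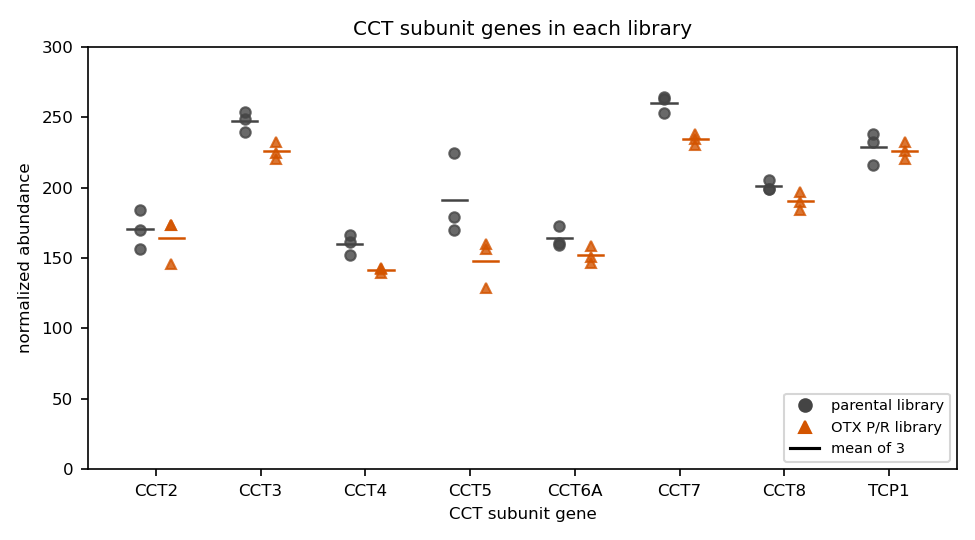
Normalized abundance, on a linear axis from 0, of the 8 tested CCT subunit genes in each library, with parental libraries as grey circles, OTX P/R libraries as orange triangles and a bar at the mean of 3. The OTX P/R mean is below the parental mean in each subunit, by most in CCT5, from 191 to 148, and by least in TCP1, from 229 to 226.

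The mitochondrial chaperonin pair did not pass. HSPD1, which forms the HSP60 ring, stood at 185, 173 and 198 against 188, 184 and 192, and its log2 fold change was 0.02 with an interval of -0.12 to 0.17 (limma adjusted p = 0.778). HSPE1, the HSP10 lid, stood at 120, 146 and 141 against 148, 154 and 149 (0.15, interval -0.04 to 0.34, adjusted p = 0.190). HSPB1, which encodes the small heat shock protein HSP27, was the only one of 7 HSPB genes above the filter and was called higher. It stood at 141, 141 and 144 in parental and 182, 195 and 187 in OTX P/R libraries, a ratio of means of 1.32 (log2 fold change 0.40 ± 0.04 SE, adjusted p = 8.88e-04). The parental libraries were nearly equal, and the call held under every alternative. HSPB2, HSPB3, HSPB6, HSPB7, HSPB8 and HSPB9 had means of at most 0.269 in either group.

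In all, 22 members were below the filter and stood outside the counts above. CCT8L2 was listed at 0 in every library. Among the others DNAJC22, a membrane J protein, stood at 1.17 ± 0.0340 in parental and at 0.274, 0.312 and 0.163 in OTX P/R libraries. DNAJB5 stood at 0.914, 0.733 and 0.809 against 0.268, 0.400 and 0.262. Both were lower with no overlap, and with no filter on low values both were called (limma adjusted p = 3.95e-04 and 0.00357), as were HSPA1A, lower (0.00478), and DNAJA4, higher at means of 0.112 against 0.0580 (0.00525). The rest, HSPA12A, HSPA12B, HSPA1L, CCT6B, DNAJB7, DNAJB8, DNAJB13, DNAJC5B, DNAJC5G, DNAJC27, DNAJC28 and the 6 HSPB genes named above, were not called in that fit.

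Several of the larger changes had neighbours on the chromosome that moved the same way. Chromosomes and gene order were taken from GENCODE release 29. For each member the median log2 fold change of the nearest 12 tested genes on each side was computed, and a stretch was defined as at least 25 consecutive genes whose running median over 25 genes was 0.3 or more in size. Of the 61 tested members 5 lay in such stretches and 4 of those were called, where 79.1% of all 786 genes tested in stretches were called, so the members' count is near that background. HSPA4 on chromosome 5, at -0.92, had neighbours with a median of -0.77, and DNAJC18, also on chromosome 5, was at -0.36 beside -0.69. DNAJC18 was not called (limma adjusted p = 0.0505) but passed without OTX P/R replicate 1 (0.0169), at a pseudocount of 5 (0.0491) and with a prior without trend (0.0420), within a range of 0.0169 to 0.128. It met the filter only through the parental libraries, with means of 1.40 in parental and 0.883 in OTX P/R libraries. DNAJC7 on chromosome 17, at -1.15, had neighbours at -0.67. On chromosome 7 DNAJC2 was at 1.16 beside 0.80 and DNAJB9 at 0.55 beside 0.55. DNAJB6, near the end of chromosome 7 and beyond the reach of the running median, was at 0.73 beside a median of 0.73 over 15 neighbours.

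Other called members had neighbours whose median was close to 0, which does not show that single neighbours did not change. DNAJB2 on chromosome 2 was at 1.94 beside -0.07, HSPA2 on chromosome 14 at 0.95 beside 0.09 and HSPB1 on chromosome 7 at 0.40 beside -0.01. DNAJB12 and DNAJC12, both on chromosome 10, were at -0.57 beside 0.04 and at -0.54 beside -0.05. In between, HSPA6 on chromosome 1 was at 0.80 beside 0.24 and DNAJC17 on chromosome 15 at 0.56 beside 0.31. CCT5 on chromosome 5, the subunit with the lowest log2 fold change, was at -0.36 beside -0.41. Outside the stretches 14 of 56 tested members were called, 7 in each direction, where 32.7% of all 9955 genes tested there were called. These 14 include DNAJB6, which the running median did not reach and whose neighbours were shifted too. The part of the neighbourhood in the change of any single member was not tested.

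**Figure D5:**
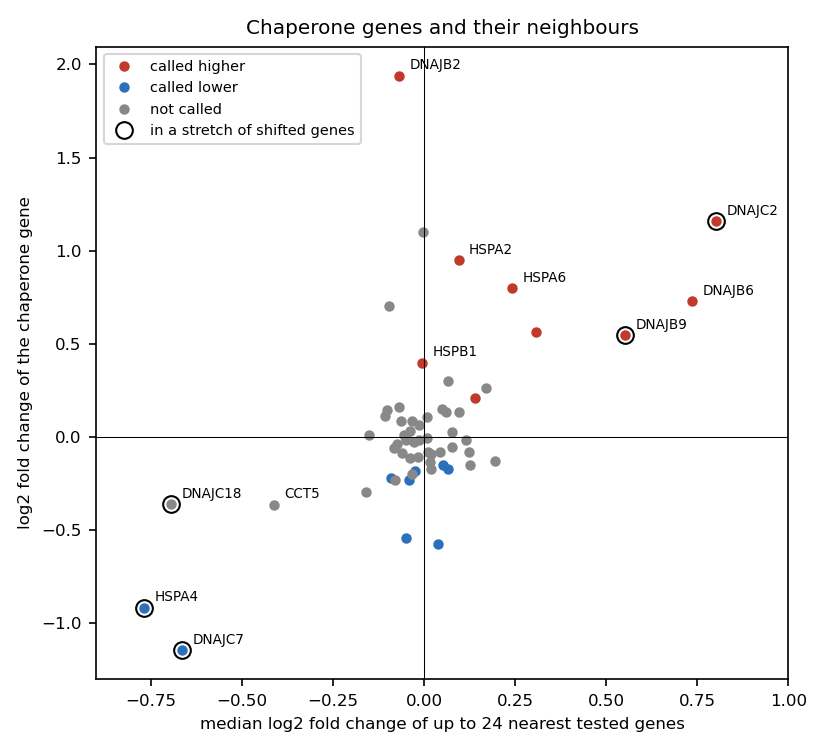
Log2 fold change of each tested chaperone gene against the median log2 fold change of its nearest tested genes on the chromosome (up to 24; 15 for DNAJB6), coloured by call, with rings around the 5 members inside stretches of shifted genes. HSPA4 and DNAJC7 lie at the lower left and DNAJC2, DNAJB6 and DNAJB9 at the upper right, while DNAJB2 and HSPA2 lie above neighbours whose median is near 0.

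Genes that work with these chaperones were taken from lists of known partners. Of 84 such genes tested 12 were higher and 23 lower, which is 41.7% against 36.1% of all genes tested. By direction 14.3% were higher and 27.4% lower, against 18.6% and 17.5% of all genes tested. Of the lower genes CDC37, AARSD1, GRPEL2, PFDN1, CANX, HSPA9 and ASNA1 lie in lowered stretches, and of the higher ones PDIA4 lies in a raised one. In stretches 79.1% of all genes tested were called, and the shares here were not given with these genes left out. The higher calls came to 7, or 8.33%, without OTX P/R replicate 1, 2 or 3. Of all genes tested 14.6%, 14.1% and 14.7% were higher in those fits. Of 16 HSP90 co-chaperones 2 were higher and 4 lower, with a median log2 fold change of -0.01. AARSD1, in the stretch of chromosome 17, had a log2 fold change of -1.29. FKBP4, an immunophilin that serves steroid receptors, rose by 0.38 on the log2 scale. CDC37, which brings kinases to HSP90 and lies inside a lowered stretch of chromosome 19, had a log2 fold change of -0.36. Of 13 HSP70 co-chaperones and exchange factors 2 were higher and 3 lower (median -0.07). BAG3, an exchange factor of selective autophagy, was at 13.4 ± 0.188 in parental and 8.16 ± 0.578 in OTX P/R libraries (SD; -0.66 on the log2 scale), and ST13, which joins HSP70 to HSP90, had a log2 fold change of -0.31. GRPEL2, in a lowered stretch of chromosome 5, was at -0.45. The higher genes BAG5 and BAG4 had log2 fold changes of 0.30 and 0.21. Of 14 prefoldin and phosducin-like partners of CCT none was higher and 3 were lower (median -0.07). PFDN1, a prefoldin subunit inside 1 of the lowered stretches of chromosome 5, had a log2 fold change of -0.90.

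Heat shock response genes outside the set were split as well. Of 15 tested 4 were higher and 5 lower, with a median log2 fold change of 0.13. For this and the following lists, the shares over all genes tested were 18.6% higher and 17.5% lower. SERPINH1, the collagen chaperone HSP47, rose from 32.8 ± 2.83 in parental to 74.9 ± 12.6 in OTX P/R libraries (SD; 1.16 ± 0.14 SE on the log2 scale, limma adjusted p = 0.00135). SQSTM1, an autophagy receptor, and CLU, a secreted chaperone, had log2 fold changes of -1.21 and -1.13, and BAG3 and FKBP4, given above, belong to this list too. SQSTM1 lies on chromosome 5, which holds lowered stretches. It was outside them as defined, but the running median does not reach the ends of a chromosome. The neighbours of SQSTM1 are not given here, so a shift of its region is left open. Of 17 genes of endoplasmic reticulum folding and the unfolded protein response 3 were higher and 4 lower (median -0.17). CRELD2 and PDIA4 were higher, at 0.60 and 0.56, with PDIA4 in the chromosome 7 stretch. ERO1A, CANX and DDIT3 were lower, at -0.90, -0.67 and -0.51, with CANX, the lectin chaperone calnexin, in a chromosome 5 stretch. Of 13 mitochondrial chaperones, import motor parts and proteases none was higher and 5 were lower (median -0.19). HSPA9, the mitochondrial HSP70 on chromosome 5, had a log2 fold change of -0.53 and also lies in a lowered stretch. Of 5 ribosome-bound and tail-anchored protein chaperones 2 were higher and 1 lower (median -0.01), the lower one being ASNA1 at -0.64, in a stretch on chromosome 19.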

How the data were processed

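Total RNA of 3 parental and 3 OTX P/R cultures was sequenced. Per the submitters' processing notes, Trim Galore, HISAT2 and StringTie were used with hg19, and no tool versions are recorded there. The authors deposited 1 signal value for each gene and library, a linear StringTie abundance that is not stated to be FPKM or TPM. The largest difference between sorted library values, among those of at least 1, is 0.243%, so the table is quantile-normalized: depth and total RNA are not kept, and no counting error can be given.

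Of 19785 genes 6 had a missing value and were left out. Groups come from the sample titles. Genes whose mean reached 1 were fitted, as log2(value + 1), with limma 3.58.1 in R 4.3.3 (lmFit, eBayes with trend, two-sided, Benjamini-Hochberg over 10741 genes), without a replicate block. Procedures were tested on simulated data. An exact permutation of 3 against 3 cannot reach a p under 0.1. Genes were named by a rule: all tested HSF, HSP90, HSP70, HSPH1, chaperonin, CCT and HSPB genes, called DNAJ genes, up to 3 called genes per direction in each list of other folding genes, and markers. Uncalled DNAJ genes and genes below the filter fall outside it, and those described singly were chosen after their values were seen. Members and lists were chosen with earlier results of these data known. Alternatives were pseudocounts of 0.1 and 5, dropping the filter or raising it to a mean of 5, other priors, median centring, a replicate block, ranking again without HBE1, summed symbols, each library left out, and members in stretches left out. Identifiers matched GENCODE release 29 for 19534 genes. Tables and plots used Python 3.11.15, pandas 2.3.3, NumPy 2.4.6 and Matplotlib 3.10.9.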

Additional observations from a re-analysis of the deposited data

How the results depend on the processing

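Of the 18 called members 10 kept their direction and their call in every alternative that tested them: DNAJB2, DNAJB6, DNAJB9, DNAJB12, DNAJC7, DNAJC12, HSPA2, HSPA4, HSPA6 and HSPB1. The other 8 lost the call in at least 1 of the 16 alternatives without changing sign. With 1 library left out, the members called ranged from 10 to 16, the lower ones from 4 to 8, and the other folding genes called higher from 7 to 9. Without an OTX P/R library the share of all genes called higher fell too, as given above, so these counts are no result about the members. The replicate numbers do not pair the samples (correlations of same-numbered deviations -0.065, -0.028 and 0.00). With the replicate number as a block the lower members came to 4, all members to 12 and the higher folding genes to 7. Calls fell over the whole table too, from 36.1% to 29.4% of all genes tested, beside 29.5% to 19.7% of the members. Lower calls fell from 17.5% to 14.4% of all genes tested and from 14.8% to 6.56% of the members. With this block HSP90AB1 (limma adjusted p = 0.0536), HSP90B1 (0.0555), DNAJC14 (0.0567), CCT4 (0.0774), CCT7 (0.0892) and DNAJB11 (0.0941) were not called. Some uncalled members changed sign with a library left out: the log2 fold change ranged from -0.25 to 0.06 for HSF1, -0.02 to 0.07 for HSPD1, -0.11 to 0.03 for CCT2, -0.06 to 0.01 for TCP1, -0.03 to 0.03 for DNAJA3, -0.08 to 0.30 for DNAJB14, -0.12 to 0.08 for DNAJB4, -0.25 to 0.04 for DNAJC11, -0.14 to 0.03 for DNAJC16, -0.12 to 0.04 for DNAJC19, -0.07 to 0.09 for DNAJC24, -0.04 to 0.07 for DNAJC3, -0.02 to 0.05 for DNAJC30, -0.23 to 0.07 for DNAJC4 and -0.03 to 0.01 for DNAJC5. Fewer samples are fitted there; other causes were not tested. Quantile normalization keeps no depth, so the precision of low genes such as HSPA6 is unknown.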
